A study of Homo sapiens with 4 samples.

Results

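RNase P and RNase MRP are nuclear enzymes built from RNA and protein, and the genes described here encode their protein subunits. POP1, POP4, POP5, POP7, RPP14, RPP21, RPP25, RPP30, RPP38 and RPP40 were taken by symbol from the platform annotation, using probe sets that carry a single gene symbol. Of these 10 genes, 9 had such a probe set, with 16 probe sets between them, out of 19775 genes and 41091 probe sets with 1 symbol on an array of 54675. RPP21 was listed only on a probe set shared with TRIM39 and the readthrough gene TRIM39-RPP21, so no value is given for it. The genes were measured in HCT116 cells, an untreated human colon carcinoma line, in 2 cultures grown as multicellular spheroids (MCS) and 2 cultures grown as monolayers, each culture on its own oligonucleotide array. The comparison served to characterize MCS, in which proliferating cells surround a quiescent and poorly supplied core. All samples are of a single cell line, and RNA was taken from whole MCS, so that rim and core are averaged.

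RNase P removes the 5′ leader from precursor transfer RNA (tRNA), the first step in shaping a functional tRNA. RNase MRP is its relative with a different RNA component and cuts precursor ribosomal RNA (rRNA) within a spacer, and the 2 enzymes share most of their proteins. In the human RNase P particle POP1 is the large scaffold that holds the other proteins on the RNA, RPP30, POP5, RPP14 and RPP40 form one module, POP4, RPP21 and RPP38 form another, and POP7 and RPP25 bind as a pair. Both serve the production of tRNA and ribosomes, which is high in growing cells.

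The promoters of 9 of the 10 genes were matched in the RefSeq table (GRCh38.p14), all except POP1, and those of 4 genes are shown because their transcripts span the range of responses described below, POP5, POP4 and POP7 with decreases and RPP38 with none called. Each run holds the 250 bases before the start site, 5′ to 3′ on the gene's strand, with matches to the motifs searched in capitals. The locations are chr12:120581403-120581652 on the minus strand for POP5, and on the plus strand chr19:29606033-29606282 for POP4, chr7:100705871-100706120 for POP7 and chr10:15097105-15097354 for RPP38.
POP5: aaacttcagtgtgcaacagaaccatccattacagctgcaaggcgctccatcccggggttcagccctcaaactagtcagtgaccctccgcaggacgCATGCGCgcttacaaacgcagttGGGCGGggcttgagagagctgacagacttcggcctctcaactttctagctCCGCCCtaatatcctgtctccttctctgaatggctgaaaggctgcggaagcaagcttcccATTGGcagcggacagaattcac
POP4: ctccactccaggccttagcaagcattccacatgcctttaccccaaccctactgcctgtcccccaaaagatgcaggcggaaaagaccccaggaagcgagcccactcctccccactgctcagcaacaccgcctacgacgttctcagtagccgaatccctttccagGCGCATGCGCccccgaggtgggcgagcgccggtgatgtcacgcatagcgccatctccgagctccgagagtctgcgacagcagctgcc
POP7: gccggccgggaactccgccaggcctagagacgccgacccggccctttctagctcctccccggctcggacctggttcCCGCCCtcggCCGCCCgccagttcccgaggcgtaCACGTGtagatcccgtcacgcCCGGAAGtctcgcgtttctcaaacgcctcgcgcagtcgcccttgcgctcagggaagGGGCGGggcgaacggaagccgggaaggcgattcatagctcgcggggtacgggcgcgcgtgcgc
RPP38: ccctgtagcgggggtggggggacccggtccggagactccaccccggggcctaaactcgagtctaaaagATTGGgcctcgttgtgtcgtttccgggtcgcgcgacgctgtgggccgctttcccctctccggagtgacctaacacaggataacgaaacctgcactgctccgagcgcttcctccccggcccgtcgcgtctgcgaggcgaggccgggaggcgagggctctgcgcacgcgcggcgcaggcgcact
Capitals mark the E-box CACGTG, the NRF1 core CATGCGC, the CCAAT box CCAAT, the ETS motif CCGGAAG and the GC box GGGCGG, each read on both strands. No match overlapped one of another motif in these 4 promoters, while the NRF1 core of POP4 overlapped its own match on the opposite strand. The search covered these bases and the 50 after the start.

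No motif was common to the family. The GC box was found in 7 of 9 promoters (44.6% of 27305 RefSeq promoters, 1 per symbol), the CCAAT box in 4, those of POP5, RPP21, RPP30 and RPP38 (35.7%), and the ETS motif in 2, those of POP4 and POP7 (10.7%). The NRF1 core was found in 4 promoters, those of POP4, POP5, RPP14 and RPP25 (4.67%), and the E-box in POP7 alone (7.43%). The E2F motif TTTCCCGC (1.66%) and the TATA box TATAAA (12%) had no match in these 9 windows. Genes with the same letters did not always have the same values: of the tested genes with an NRF1 core, POP4 and POP5 were called lower in MCS and RPP14 was not. A match is a stretch of letters and no evidence of binding.

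Signals are MAS5 intensities, which the authors scaled to one average per array, and differences are log2(signal + 32) in spheroids minus monolayers ± standard error (n = 2 per group). A gene was called when limma's adjusted p over all 8721 genes tested was under 0.05, where tested genes had a mean signal above 300 units. The family was selected on values of this same comparison, in which POP1 had been seen among the largest decreases. The differences and calls of the subunits are therefore a description, with no p-value and nothing read from their number. Of the 9 subunits with a probe set, 8 passed the signal filter, and 6 of these were called lower and 0 higher, where 20.6% of all tested genes were called lower and 19% higher. Both spheroid arrays lay below both monolayer arrays for the same 6 genes, as for 36.6% of all tested genes, and above both for 0 subunits, as for 33.4% of all tested genes. The median difference of the 8 was -0.94, that of all genes -0.03.

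POP1, the scaffold protein, had signals of 452.4 and 588.4 in spheroids, against 1674 and 1761 in monolayers. The groups were far apart relative to the spread within either, and the log2 difference of -1.67 ± 0.20 left 31.3% of the monolayer value. Only 0.0803% of tested genes had a larger decrease. Across the other filters, constants, scalings, probe set rules and limma fits tried, spike-in scaling aside, the difference ran between -1.85 and -1.50, and limma's call was kept in each.

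POP5, a small protein of the same fold as RPP14 with which it pairs, had the next largest decrease. Its signals were 3431 and 3789 in spheroids, against 8399 and 9375 in monolayers. The difference was -1.29 ± 0.14, and 0.826% of tested genes fell further. RPP30, which is present in the particle as a pair of copies and binds POP5, had signals of 1778 and 1857 in spheroids, against 3233 and 3870 in monolayers (-0.95 ± 0.16). The spheroid arrays were close together for both genes, and the monolayer arrays lay well above them.

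RPP40, a subunit restricted to eukaryotes that contacts POP5 and RPP14 in the same module, was lower by a smaller margin. It had signals of 1686 and 2017 in spheroids, against 2506 and 3081 in monolayers, a difference of -0.58 ± 0.17. The groups did not overlap, but the call was lost without spheroid replicate 1 (-0.46), without monolayer replicate 2 (-0.44) and with no signal filter (-0.58).

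RPP14 had signals of 963.8 and 1096 in spheroids, against 1051 and 1528 in monolayers. The groups overlapped, and the difference of -0.29 ± 0.21 was not called. In RefSeq the RPP14 gene has the same bounds as HTD2, which encodes a mitochondrial fatty acid synthesis enzyme from the same transcript, so their signals cannot be told apart here. In this module POP5, RPP30 and RPP40 were called lower and RPP14 was not.

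POP4, also known as Rpp29, binds the RNA as a pair with RPP21. Its signals were 3234 and 3098 in spheroids, against 5978 and 7703 in monolayers, a difference of -1.09 ± 0.15. The monolayer cultures were further apart than the spheroid cultures, yet the lower of them was well above both spheroids. RPP38, an RNA-binding protein of the L7Ae family, had signals of 1306 and 1716 in spheroids, against 1655 and 1945 in monolayers. The higher spheroid array exceeded the lower monolayer array, and the difference of -0.26 ± 0.19 was not called.

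POP7, also known as Rpp20, is an Alba-type RNA-binding protein that acts as a dimer with RPP25. It had signals of 2370 and 2243 in spheroids, against 4455 and 4444 in monolayers, and the 2 monolayer arrays were closer together than for the brightest probe set of any other subunit. The difference was -0.94 ± 0.15, or 52.2% of the monolayer value. Its partner RPP25 was dim: the brighter of 2 probe sets had 170.3 and 110.5 in spheroids, against 217.6 and 187.4 in monolayers, and the dimmer one had 79.1 and 71.9 in spheroids, against 100.1 and 33.8 in monolayers. Both were under the signal filter, so RPP25 was not tested, and their differences were -0.46 ± 0.37 and 0.21 ± 0.48.

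**Figure D1:**
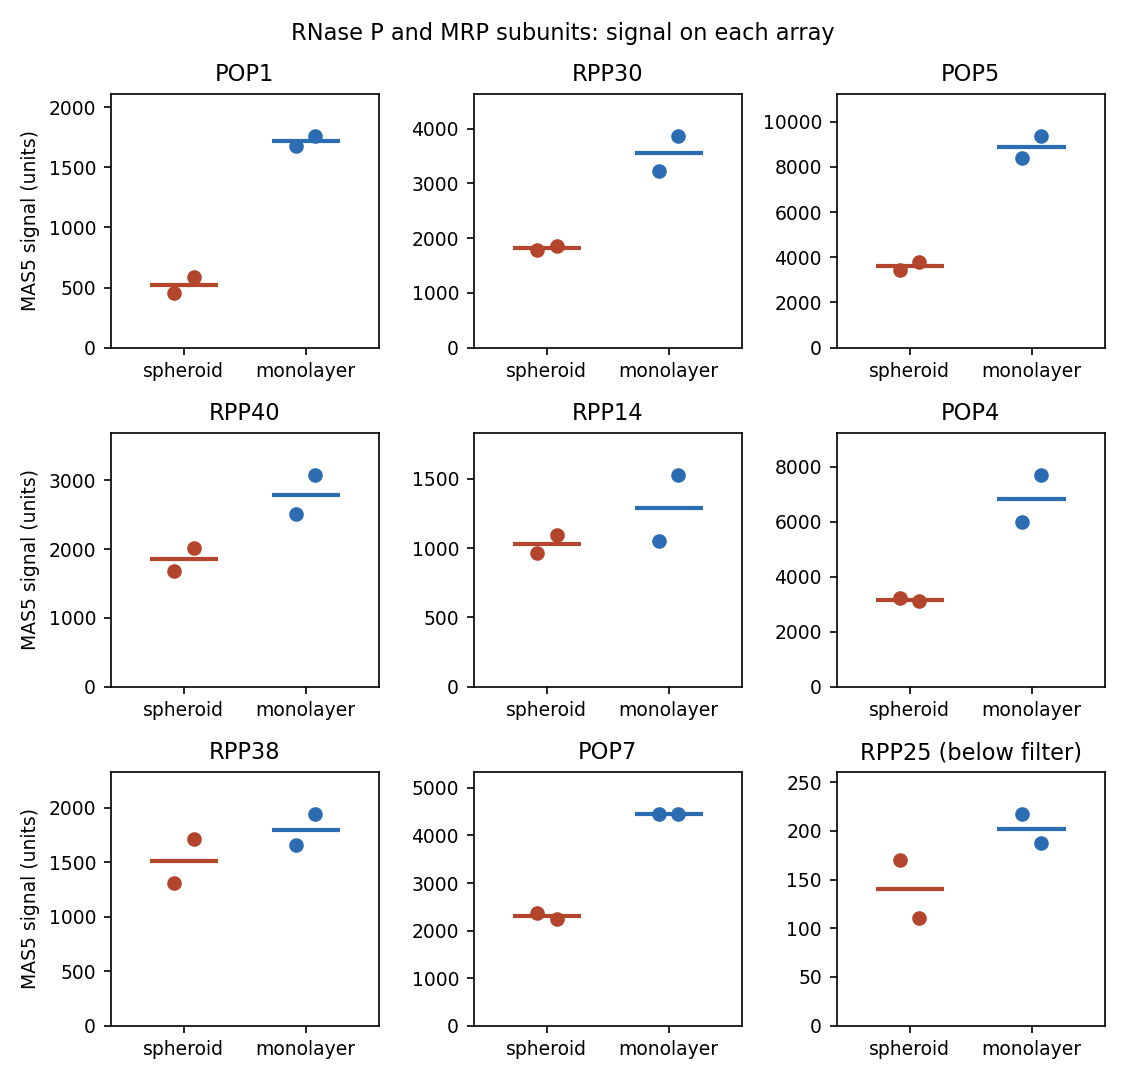
MAS5 signal (y, linear axis from 0, each panel with its own range) of the brightest probe set of each of 9 subunits in the 2 spheroid arrays (left, red) and the 2 monolayer arrays (right, blue), with the mean as a bar. Spheroids lay below monolayers for POP1, RPP30, POP5, RPP40, POP4, POP7 and the dim RPP25, and overlapped them for RPP14 and RPP38.

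The tested subunits covered a range of decreases. POP1, POP5, POP4, RPP30 and POP7 had between 31.3% and 52.2% of the monolayer value in spheroids, RPP40 had 66.8%, and RPP14 and RPP38 had 81.5% and 83.7%. Called lower were the scaffold POP1, then POP5, RPP30 and RPP40 from the module of RPP14, POP4 from that of RPP38, and POP7. RPP14 and RPP38 were not called, and RPP21 and RPP25, partners of POP4 and POP7, had no tested value. With so few members per module, nothing is read from how the calls were spread. Whether the decreases differed between subunits was not tested.

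These differences are relative to the total signal of an array. Bacillus control transcripts averaged 1.82-fold higher signals on spheroid arrays, a ratio of group averages whose spread between arrays is not given here. When these controls were set equal, the median of all genes shifted to -0.87, with 169 genes called higher and 4073 lower. On that scale the subunits' differences ran from -2.50 for POP1 to -1.10 for RPP38. Their standard errors were 0.40 to 0.41, against 0.14 to 0.21 as deposited. All 8 were called lower, as were 46.3% of all genes in that fit. Spike-in scaling divides all signals of an array by the same factor, so every gene shifts nearly alike. The order of the subunits could therefore hardly change, and their calls are not independent. RPP14 (-1.13) and RPP38 again lay closest to the median of all genes.

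**Figure D2:**
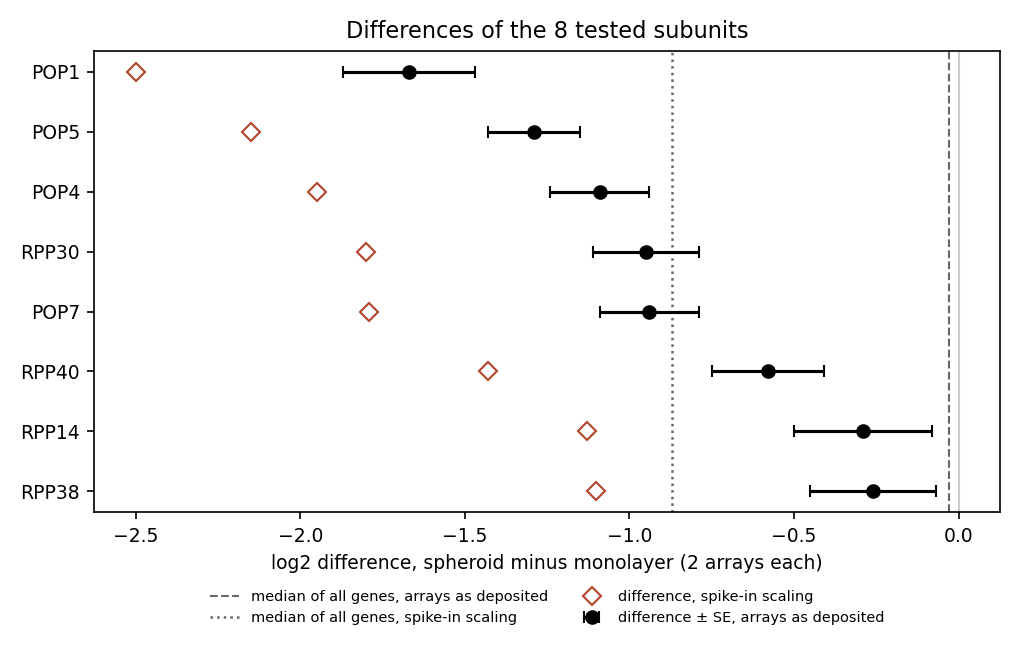
For each of 8 tested subunits (y), the spheroid minus monolayer log2 difference (x, 2 arrays per group) is drawn as black points with standard errors for arrays as deposited and open diamonds after spike-in scaling. Dashed and dotted lines are the medians of all genes on each scale, -0.03 and -0.87. Differences as deposited ran from -1.67 for POP1 to -0.26 for RPP38. Spike-in scaling divides an array by the same factor throughout, so every gene shifts nearly alike. Standard errors of the diamonds, 0.40 to 0.41, are not drawn.

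Several subunits had more than 1 probe set, and these did not always move alike. RPP30 had 4, of which the brightest carried the decrease given above. Its probe set 1556061_at had 488.0 and 562.6 in spheroids, against 817.9 and 539.7 in monolayers (-0.33 ± 0.24), and the groups overlapped. The remaining pair, 1556063_s_at and 1556062_at, were under the filter at -0.37 ± 0.34 and -0.20 ± 0.42. RPP14 had 3 probe sets that went different ways. Its second, 227005_at, had 1100 and 1018 in spheroids, against 954.0 and 955.7 in monolayers (0.14 ± 0.15), so that the direction for RPP14 depended on the probe set. The last, 236380_at, was dim, with 102.8 and 100 in spheroids, against 236.5 and 209.6 in monolayers (-0.93 ± 0.35). The dim probe set of POP4, 227583_at, had 169.8 and 119.6 in spheroids, against 180.4 and 181.5 in monolayers (-0.28 ± 0.36). POP1, POP5, POP7, RPP38 and RPP40 had 1 probe set each, so no second probe set bears on their values. The part of transcript read by each probe set was not examined.

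**Figure D3:**
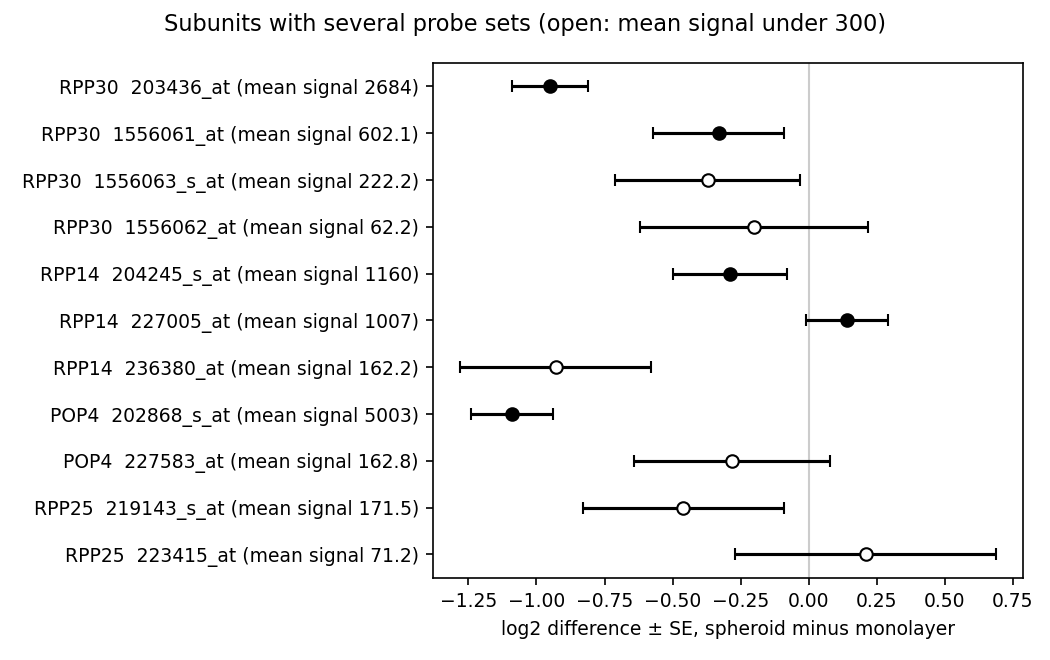
Log2 difference with its standard error (x), spheroid minus monolayer, of every probe set of the 4 subunits with more than 1 (y, with its mean signal over the 4 arrays). Filled points have a mean signal above 300 units and open points do not; the brightest probe sets of RPP30 and POP4 had the differences furthest below 0 for their gene, and RPP14 had probe sets on both sides of 0.

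The RNA component of RNase P, RPPH1, also had a probe set and was looked up after the values of the subunits were seen. It was dim, with signals of 160.9 and 100.7 in spheroids, against 29.4 and 49.1 in monolayers, where the unspiked control probe sets reached 35. The monolayer values lay near that level, and the difference of 1.18 ± 0.44 was not called (limma over all probe sets, adjusted p = 0.173). RPPH1 is made by RNA polymerase III and has no poly(A) tail, and how well such an RNA was labelled was not tested. RMRP, the RNA of RNase MRP, was not analysed here.

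Relatives of the subunits were described next. RPP25L, the paralogue of RPP25, had signals of 3105 and 2392 in spheroids, against 3200 and 2984 in monolayers, and was not called (-0.18 ± 0.17, limma adjusted p = 0.422). Of the proteins with the same L7Ae fold as RPP38, SNU13, a component of the spliceosome and of box C/D particles, was lower (1887 and 1382 in spheroids, against 2650 and 2623 in monolayers; -0.70 ± 0.18, limma adjusted p = 0.00901), but not called once spheroid replicate 2 was left out (-0.48). NHP2, its counterpart in box H/ACA particles and telomerase, was lower as well (-0.57 ± 0.13, limma adjusted p = 0.00358). SECISBP2, which is needed to insert selenocysteine, was not called (0.28 ± 0.15, limma adjusted p = 0.151), and spike-in scaling gave it the opposite sign (-0.57). The ribosomal protein RPL7A shared its probe sets with small nucleolar RNA genes, and NEPRO and C18orf21, linked to RNase MRP, were not analysed here.

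Other enzymes that shape tRNA were lower more often than higher. This list and those that follow were drawn up by role, but with earlier results of these data known. The genes named were picked by size of difference, so shares and p-values are a description. Of 24 listed genes of tRNA end processing, splicing and export, 22 were tested, with a median of -0.47. Of the 22, 12 were lower (54.5%, against 20.6% of all tested genes) and 1 higher (4.55%, against 19%). ELAC2, the endonuclease that cuts the 3′ trailer opposite the RNase P site, had signals of 1213 and 1241 in spheroids, against 2361 and 2846 in monolayers (-1.06 ± 0.17, limma adjusted p = 4.79e-04). HSD17B10, a part of the separate mitochondrial RNase P that works without RNA, was lower by a similar amount (-0.93 ± 0.15, limma adjusted p = 4.61e-04), as was the splicing endonuclease subunit TSEN54 (-0.99 ± 0.17). The higher gene was TRPT1, which removes the phosphate left by tRNA ligation in yeast, with 1407 and 1029 in spheroids, against 600.7 and 467.8 in monolayers (1.14 ± 0.22, limma adjusted p = 0.00177). It was not called with spike-in scaling (0.31). The count of lower genes was 6 without monolayer replicate 2.

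Of 59 listed tRNA modification genes, 50 were tested, with a median of -0.45. Of the 50, 23 were lower (46%, against 20.6% of all tested genes) and 1 higher (2%, against 19%). Of the 23, DUS3L and OSGEP passed the signal filter through the monolayers alone, and 21 had means above 300 units in both culture types. The dihydrouridine synthase DUS3L had signals of 270.4 and 320.9 in spheroids, against 684.7 and 896.2 in monolayers, a difference of -1.32 ± 0.24. CTU2, which adds sulphur to the wobble base, differed by -1.06 ± 0.20, and ALKBH8, which acts on wobble uridine, had signals of 293 and 327 in spheroids, against 604.9 and 702.9 in monolayers. OSGEP, the catalytic part of the complex that makes threonylcarbamoyladenosine, had signals of 150.1 and 207.8 in spheroids, against 347.2 and 502 in monolayers (-1.11 ± 0.29). Its call was lost without spheroid replicate 1 (-0.91), without monolayer replicate 2 (-0.86) and with no signal filter (-1.11). The higher gene was the Elongator subunit ELP2 (0.89 ± 0.22, limma adjusted p = 0.00677), named after its value was seen, and 0 genes were called higher without spheroid replicate 2.

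RNA polymerase III transcribes tRNA genes and RPPH1. The list for its initiation also held its repressor MAF1 (0.19 ± 0.27, not called). Of 19 listed genes, 16 were tested, with a median of -0.29. Of the 16, 6 were lower (37.5%, against 20.6% of all tested genes) and 0 higher (against 19%). Those with the largest differences were the TFIIIC subunits GTF3C4 (-0.80 ± 0.19) and GTF3C6 (-0.73 ± 0.14), SNAPC5 of the complex that drives small nuclear RNA genes (-0.72 ± 0.15) and the TATA-binding protein TBP (-0.69 ± 0.19). The call of TBP was lost without spheroid replicate 2 (-0.56) or monolayer replicate 2 (-0.62), and the count of lower factors was 3 without spheroid replicate 2, or 18.8% against 16.6% of all genes in that fit. For the 0 factors called higher by limma, the count at an unadjusted p under 0.05 was also 0.

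The list for precursor rRNA cleavage and the exosome, which trims its products, also held factors of rRNA methylation and ribosome assembly. Of 37 listed genes, 36 were tested, with a median of -0.60. Of the 36, 21 were lower (58.3%, against 20.6% of all tested genes) and 0 higher (against 19%). At an unadjusted limma p under 0.05, 0 were higher as well. EXOSC9, a ring subunit of the exosome, had signals of 1885 and 2153 in spheroids, against 5022 and 4905 in monolayers (-1.29 ± 0.15, limma adjusted p = 5.16e-05). DIMT1, an rRNA methylase, differed by -1.07 ± 0.13, PNO1, which acts late in small subunit assembly, by -1.13 ± 0.16 and the scaffold UTP20 by -1.03 ± 0.28. UTP20, at 188.2 and 328.4 in spheroids, against 559.5 and 525 in monolayers, passed the filter through the monolayers alone, and 20 of the 21 had means above 300 units in both culture types. PNO1 was not called without _x_at and _s_at probe sets (-0.22). The call of UTP20 was lost without spheroid replicate 1 (-0.67) and with no signal filter (-1.03).

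Cell division markers moved with the culture type too, and their part in the values above was not tested. All 12 were called lower in spheroids, against 20.6% of all tested genes (median of the markers -1.15). The proliferation marker MKI67 had signals of 2706 and 2760 in spheroids, against 6051 and 7251 in monolayers (-1.27 ± 0.15). Also among them were the mitotic kinases AURKA (-1.36 ± 0.14) and PLK1 (-1.40 ± 0.29) and cyclin B1, CCNB1 (-1.25 ± 0.12). The median of the subunits, -0.94, lay between that of these markers and those of the tRNA and rRNA lists, and these medians were not tested against each other. In RNA from whole cultures, fewer cells expressing a gene and less RNA per cell cannot be told apart.

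**Figure D4:**
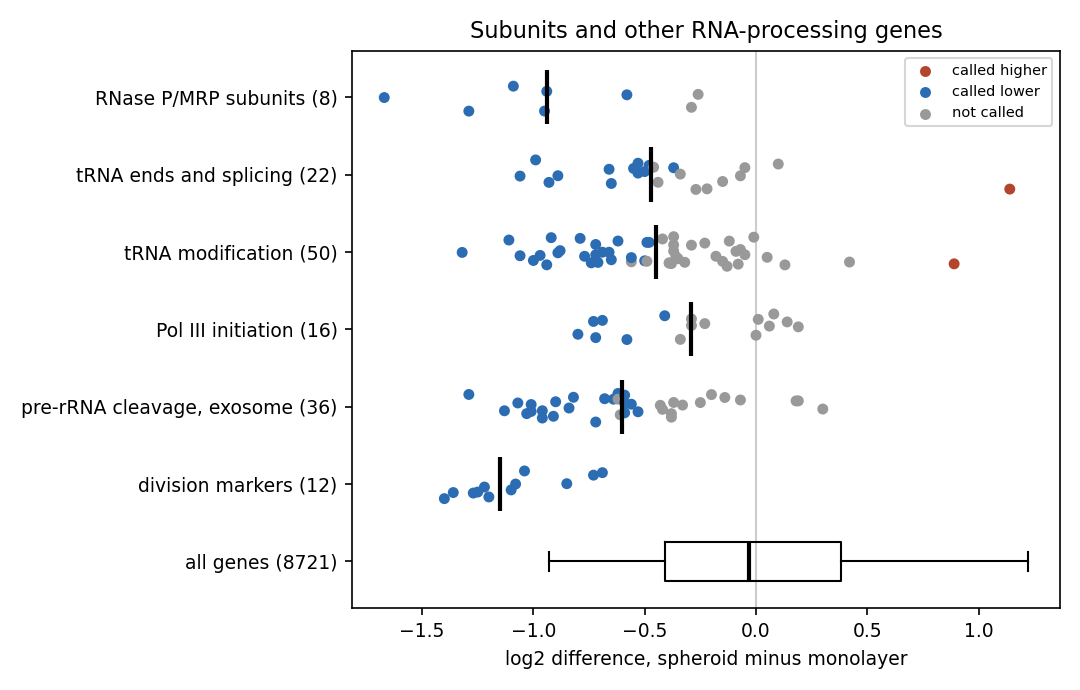
Points give the log2 difference, spheroid minus monolayer (x), of the tested genes in each of 6 lists (y, with their number). Blue points were called lower, red points higher and grey points neither, and black bars are medians. The box for all 8721 genes spans the quartiles, with whiskers from the 5th to the 95th percentile; medians ran from -1.15 for division markers to -0.29 for RNA polymerase III initiation, against -0.03 for all genes.

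The authors' scaling set the trimmed mean of each array to 500.1. The correlation across genes within a group was 0.979 for spheroids and 0.984 for monolayers. An 18S rRNA control probe set had 2860 and 706.3 in spheroids and 5789 and 937.2 in monolayers, higher in replicate 1 of both groups. The ratio of 3′ to 5′ signal for ACTB, a sign of RNA quality, was 2.82 and 3 in spheroids and 2.64 and 2.34 in monolayers, and that for GAPDH was 0.931 and 0.921 in spheroids and 1.07 and 1.02 in monolayers. Of 10 colon epithelial markers 5 were above 300 units, namely EPCAM, CDH1, KRT8, KRT18 and KRT19, while VIL1, CDX1, CDX2, LGALS4 and GPA33 were not. CDH1 (1.73 ± 0.19, limma adjusted p = 4.15e-05) and KRT19 (0.79 ± 0.12, limma adjusted p = 2.65e-04) were called higher, but not with spike-in scaling (0.88 and -0.07). Of 9 markers of leukocytes, endothelium and fibroblasts 1 was above 300 units, ACTA2, and their summed signal was 748.4 to 973 in spheroids and 517.8 to 720.9 in monolayers. ACTA2 was called higher, though not with spike-in scaling (0.29), at signals of 551.5 and 451.5 in spheroids, against 239 and 202.2 in monolayers (1.08 ± 0.26, limma adjusted p = 0.00571), and without it the sums were 421.5 and 296.9 in spheroids, against 481.9 and 315.6 in monolayers.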

How the data were processed

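Total RNA from HCT116 monolayers and spheroids was hybridized to 1-colour Genome U133 Plus 2.0 arrays, 1 per culture. The deposited values are linear signal intensities per probe set, normalized by the authors with MAS5, with no version given in the labels or methods. Detection calls were not used. The platform annotation supplied gave 1 symbol to 41091 of 54675 probe sets, and only these were named. A constant of 32 was added before taking log2, which shrinks differences of dim genes. The signal filter took probe sets whose 4 arrays averaged over 300 units. The study's methods give 300 units, together with present calls, for its gene set enrichment analysis and name no mean over arrays. The filter also passes a gene that is bright in 1 culture type alone. Each gene was represented by its brightest probe set, giving 8721 genes. The comparison used lmFit and eBayes of limma 3.58.1 in R 4.3.3 with an intensity trend, two-sided, with Benjamini-Hochberg adjustment over all genes. The fit had 2 residual and 10.5 prior degrees of freedom, and the number of arrays limits the precision. The methods name 2 independent cultures per group.

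Single probe sets were fitted over all 41091, with no filter. Promoters came from RefSeq (GRCh38.p14). Members, gene lists and spike-in scaling were chosen with earlier results of these data known. Lists were described by counts and medians, without set tests. Named genes were all subunits and relatives, and up to 4 called genes per list by size of difference. Alternatives were other filters, added constants, scalings and probe set rules, no trend, a block for the replicate number and leaving out each array. Student's t-test was also tried, which the methods name in general but not for the arrays.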

Additional observations from a re-analysis of the deposited data

How the results depend on the processing

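The 6 subunits called lower numbered 5 or 6 under every alternative limma fit with 2 arrays per group except spike-in scaling, where 8 were called. Spike-in scaling aside, the share of all genes called lower in those fits ran from 6.66% with no signal filter to 26.4% with the replicate block. With spike-in scaling 46.3% of all genes were called lower. Student's t-test called 5 subunits lower at an unadjusted p under 0.05, as it did 1430 of all 8721 genes. After Benjamini-Hochberg adjustment it called 0 subunits lower. In these fits 0 subunits were called higher. Of 111 recalculated subunit differences, 105 kept direction and call, 3 lost the call, all of RPP40, 2 gained it, RPP14 and RPP38 with spike-in scaling, and RPP14 turned to 0.14 without _x_at and _s_at probe sets, as it did with 227005_at alone, a choice made after seeing the data. RPP25L ran from -0.37 to 0.01 with each array left out in turn, 0.01 being without spheroid replicate 2, SECISBP2 to -0.57 with spike-in scaling and SNU13 to 0.28 with its dim probe set alone. The cause was not tested. Probe sets fitted alone are not among the 111, and the dimmer ones of POP4 (-0.28) and RPP30 (-0.33, -0.37 and -0.20) were not called. POP4 had no value without _x_at and _s_at probe sets, since its only probe set above the filter was an _s_at one.

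Spike-in scaling gave 169 genes higher and 4073 lower, with 0 higher for tRNA end processing and for tRNA modification. Lower were 43 of 52 tested tRNA modification genes (82.7%), 10 of 16 for RNA polymerase III initiation (62.5%) and 32 of 36 for rRNA cleavage (88.9%). The share of all genes called lower in that fit was 46.3%. Without _x_at and _s_at probe sets, with fewer genes tested, 1118 genes were higher and 1114 lower. In that fit 0 tRNA end processing and 0 tRNA modification genes were higher. Lower were 10 of 29 tRNA modification genes (34.5%) and 12 of 23 rRNA cleavage genes (52.2%), against 18.3% of all genes. As means of probe sets, 0 tRNA modification genes were higher, against 1611 of all genes. Student's t-test called 1 gene higher and 1 lower after Benjamini-Hochberg adjustment. With each array left out in turn, all genes called ran from 1208 to 1502 higher and 1362 to 1484 lower, tRNA end processing from 6 to 12 lower, tRNA modification from 17 to 21 lower and 0 to 1 higher, RNA polymerase III initiation from 3 to 5 lower and rRNA cleavage from 16 to 22 lower.

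Replicate numbers 1 and 2 are shared by the groups, but nothing states that they pair cultures. Same-numbered arrays deviated together across genes (correlation 0.323). With the replicate number as a block, 2114 genes were higher and 2301 lower, 6 subunits were lower and 2 tRNA modification genes were higher. Both probe sets of RPP25 were under 300 units in mean signal, with standard errors of 0.37 and 0.48.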
